A study of Mus musculus with 2 samples.

Results

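The dual-specificity MAP kinase phosphatases are enzymes that switch MAP kinases off by removing phosphate from both the threonine and the tyrosine of the kinase activation loop. The 10 genes of the family described here, Dusp1, Dusp2, Dusp4, Dusp5, Dusp6, Dusp7, Dusp8, Dusp9, Dusp10 and Dusp16, were taken by symbol, and all 10 were found among the 55414 genes of the count tables. They fall into 3 classes by location and substrate. Dusp1, Dusp2, Dusp4 and Dusp5 encode nuclear enzymes whose genes are inducible by growth factors or stress. Dusp6, Dusp7 and Dusp9 encode cytoplasmic enzymes that act mainly on the ERK kinases. Dusp8, Dusp10 and Dusp16 encode enzymes that act mainly on the stress-activated kinases JNK and p38. Several of these genes are themselves transcribed in response to MAP kinase signals, so that the enzymes form a negative feedback. In mouse embryonic stem cells, ERK signalling driven by FGF4 favours exit from the pluripotent state, which makes the ERK-directed members part of the control of self-renewal. In human cells, DUSP1, DUSP2, DUSP4 and DUSP5 have each been described as targets of p53.

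RNA of the mouse embryonic stem cell line R1E, labelled wild type, was sequenced in 2 libraries. One came from cells given 0.5 µM Adriamycin for 8 h and the other from cells with no treatment, labelled 0 h. The drug, also known as doxorubicin, traps topoisomerase II on DNA and leaves strand breaks. Cells of both libraries were kept in serum with leukemia inhibitory factor, and the sources used here do not say whether feeder cells were present. Each condition has 1 library, so the conditions were not tested against each other and no p-value is given, and the drug cannot be told apart from 8 h more in culture or from any other difference between the cultures. In bulk RNA, fewer cells with a transcript and less of it per cell cannot be told apart either.

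The Adriamycin library held 38561292 reads and the untreated library 41820999. A gene was called measured when its mean over both libraries was at least 1 CPM, where CPM is the read count relative to a library size scaled by TMM, a method that aligns the bulk of genes between libraries. There were 14871 such genes, and all 10 phosphatase genes were among them and reached 1 CPM in each library. Log2 ratios are those of the Adriamycin over the untreated library, and ranges in parentheses are exact 95% counting intervals, with no account of differences between cultures. The label was checked against markers. All 10 stem cell markers listed, Pou5f1, Sox2 and Nanog among them, were measured, and their CPM per kilobase of exon summed to 2818 in the Adriamycin and 4245 in the untreated library. Of these markers 5 were at least 2-fold lower, or 2 with total-count and 6 with upper-quartile scaling. Among 8 fibroblast markers, Col3a1, Dcn and Lum had 0 reads in both libraries. The list summed on the same scale to 21.5 in the Adriamycin and 8.90 in the untreated library. Fbln2 and Col1a1 were at least 2-fold higher, while Pdgfrb (log2 ratio 0.58), Col1a2 (0.04) and Thy1 (-0.14) did not reach 2-fold. Of 10 markers of differentiated lineages, 9 were measured, with 3 higher and 1 lower, and they summed to 18.0 with Adriamycin and 13.1 without. The 3 higher ones were under 1 CPM in the untreated library, and the lower one was under 1 CPM with Adriamycin. The part of such cells in the values below was not tested. All 6 genes listed as a check of the p53 response (Mdm2, Phlda3, Trp53inp1, Ccng1, Cdkn1a and Sesn2) reached 2-fold, all on the Adriamycin side. These lists were chosen with earlier results of these data known, so this is no independent check. For all counts in this paragraph, the shares over all measured genes were 17.0% higher and 6.95% lower.

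By a rule of at least 2-fold, 2 of the 10 phosphatase genes were higher with Adriamycin (Dusp2 and Dusp8), 1 was lower (Dusp16) and 7 were neither. Among all measured genes 17.0% were higher and 6.95% lower by the same rule, so the number of family members called is close to what the whole table gives. The median log2 ratio of the 10 genes was 0.09, and -0.03 with upper-quartile scaling, beside -0.03 for all measured genes. Log2 ratios within the family ran from -1.15 for Dusp16 to 3.92 for Dusp2. The called genes came from different classes, Dusp2 from the nuclear one and Dusp8 and Dusp16 from the JNK- and p38-directed one.

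**Figure D1:**
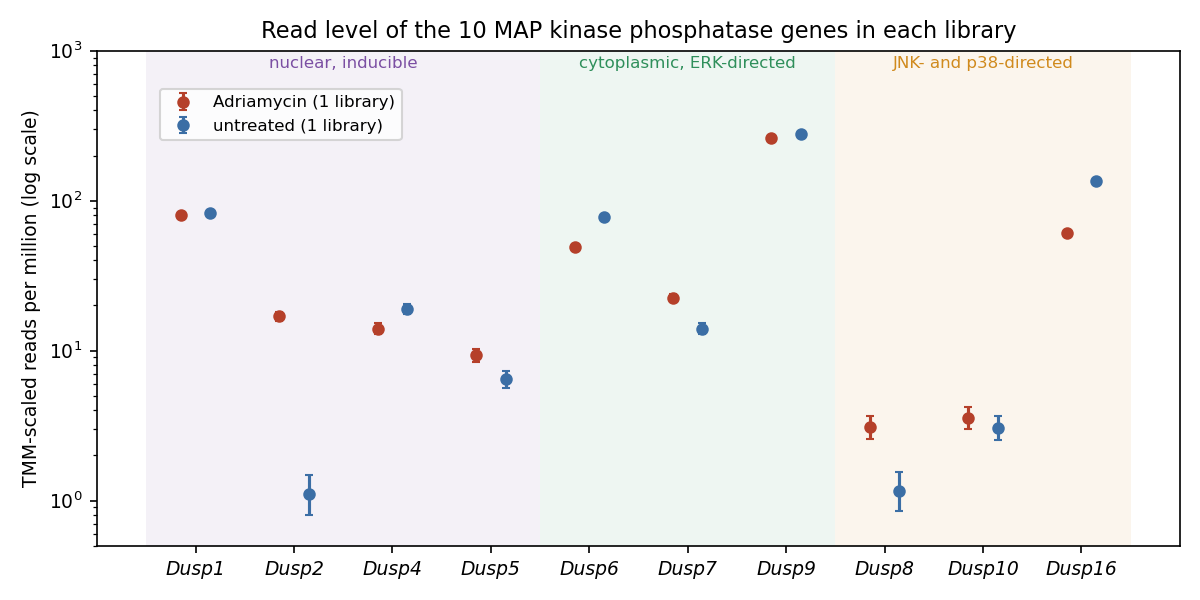
TMM-scaled CPM of each of the 10 genes on a log axis, with the Adriamycin library left of the untreated one and bars for the exact 95% Poisson interval of the read count. Dusp2 stood at 16.9 CPM in the Adriamycin and 1.11 CPM in the untreated library, while Dusp9 was at 263 CPM with Adriamycin and 277 CPM without.

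The start regions of the 3 called genes are shown first, together with that of Dusp5, since its window held a pair of adjoining matches to the CArG box, the site of serum response factor. The sequences are those of RefSeq on build GRCm38.p6, from 250 bases before to 50 bases after the annotated start, 5′ to 3′ on the strand of the gene. They lie at chr2:127335909-127336208 on the plus strand for Dusp2, chr7:142095235-142095534 on the minus strand for Dusp8, chr6:134792579-134792878 on the minus strand for Dusp16 and chr19:53528895-53529194 on the plus strand for Dusp5. Capitals mark matches, on either strand, to the TATA box (spelled TATAAA), the CCAAT box, the GC box (spelled GGGCGG), the cyclic AMP response element (spelled TGACGTCA), the AP-1 site (spelled TGANTCA, where N is any base), the E-box (spelled CACGTG), the CArG box and the p53 half-site.
Dusp2: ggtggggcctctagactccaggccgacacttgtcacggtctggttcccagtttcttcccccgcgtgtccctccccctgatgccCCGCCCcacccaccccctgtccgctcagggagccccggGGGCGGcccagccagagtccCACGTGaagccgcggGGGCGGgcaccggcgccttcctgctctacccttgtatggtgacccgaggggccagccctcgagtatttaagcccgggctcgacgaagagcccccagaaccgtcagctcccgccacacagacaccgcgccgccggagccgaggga
Dusp8: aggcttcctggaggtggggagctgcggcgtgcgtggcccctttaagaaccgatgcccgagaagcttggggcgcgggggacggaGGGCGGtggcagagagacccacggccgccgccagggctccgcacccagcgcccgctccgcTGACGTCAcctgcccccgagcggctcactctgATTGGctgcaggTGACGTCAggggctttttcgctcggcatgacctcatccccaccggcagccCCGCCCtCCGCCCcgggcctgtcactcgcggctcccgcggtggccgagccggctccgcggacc
Dusp16: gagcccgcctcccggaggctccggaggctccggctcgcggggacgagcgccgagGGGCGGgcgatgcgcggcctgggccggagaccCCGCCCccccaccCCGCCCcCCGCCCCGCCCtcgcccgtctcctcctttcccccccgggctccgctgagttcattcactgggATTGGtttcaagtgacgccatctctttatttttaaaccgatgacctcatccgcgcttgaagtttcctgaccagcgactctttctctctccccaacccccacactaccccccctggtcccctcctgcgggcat
Dusp5: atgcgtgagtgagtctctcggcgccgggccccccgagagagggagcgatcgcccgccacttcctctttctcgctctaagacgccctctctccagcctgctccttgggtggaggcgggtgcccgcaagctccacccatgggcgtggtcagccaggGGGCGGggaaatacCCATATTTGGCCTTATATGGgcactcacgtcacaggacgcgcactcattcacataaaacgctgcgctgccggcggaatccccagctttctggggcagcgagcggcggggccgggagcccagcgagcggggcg

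Start regions of 8 of the 10 genes were in the reference table, and Dusp4 and Dusp9 were not among them. The cyclic AMP response element was present in 2 of the 8, Dusp8 and Dusp1, against 1.79% of 32851 mouse start regions of the same length. Dusp8 held this motif at 2 places, from -107 to -100 and from -63 to -56 relative to the start, and Dusp1 at 1 place, from -143 to -136. The CArG box was found in 1 of the 8, Dusp5, from -82 to -73 and from -72 to -63, against 1.63% of all start regions. The GC box was present in 7 of the 8, all but Dusp6, against 35.7% of all, and the CCAAT box in 5 of the 8 against 37.4%. The E-box was present in Dusp2 and Dusp1, against 7.15% of all. Neither the TATA box (13.6% of all), the AP-1 site (7.81%) nor the p53 half-site (8.36%) was among the letters of any of the 8 windows. The windows had between 57.3% GC for Dusp6 and 78.7% for Dusp7, above the median of 52.7% over all start regions. The called genes shared no motif that the uncalled ones lacked, and a match is a description of letters, not a site of binding.

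The nuclear class held the gene farthest apart between the libraries. Dusp2, also called PAC-1, was first described in activated T cells and acts on ERK and p38 in the nucleus. It lies on chromosome 2 from 127178079 to 127180296 (GRCm39, plus strand) with 2003 exonic bases. Dusp2 had 685 reads in the Adriamycin library (634.7 to 738) and 44 in the untreated library (32.0 to 59.1). The Adriamycin count was thus high and the intervals of the counts were far apart. The log2 ratio was 3.92 (3.49 to 4.41), a 15.1-fold higher level, which was between 3.80 and 4.06 over the scalings tried. Since the header sets no option to count read pairs as 1 fragment, the interval was also taken on reads divided by 2 and was then 3.31 to 4.63. Dusp2 lay above 98.2% of all measured genes in log2 ratio, and above 97.7% of those at a similar mean level (5 to 20 CPM), where 19.9% were at least 2-fold higher.

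The other nuclear members differed far less. Dusp1, or MKP-1, acts on p38, JNK and ERK and is a classic immediate early gene of stress. It had 3245 reads in the Adriamycin and 3312 in the untreated library, a log2 ratio of -0.06 (-0.13 to 0.01). The libraries were thus close, and the sign turned to 0.09 with total counts. Dusp4, or MKP-2, had 569 reads with Adriamycin and 754 without, a log2 ratio of -0.43 (-0.59 to -0.28). Dusp5, which acts on ERK in the nucleus, had 377 reads with Adriamycin and 256 without, a log2 ratio of 0.53 (0.30 to 0.77). Dusp4 was thus the lower one and Dusp5 the higher one, both short of 2-fold. The class had a median log2 ratio of 0.24, with 1 of 4 members at least 2-fold higher and 0 lower. Among all measured genes 17.0% were higher and 6.95% lower, and nothing is read from a count of 4 genes. Exons of Dusp1 share 11 bases with Ergic1, an opposite-strand gene of 7766 reads with Adriamycin and 5899 without, and exons of Dusp5 share 547 bases with AC137853.2, which had 1 read in each library.

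**Figure D2:**
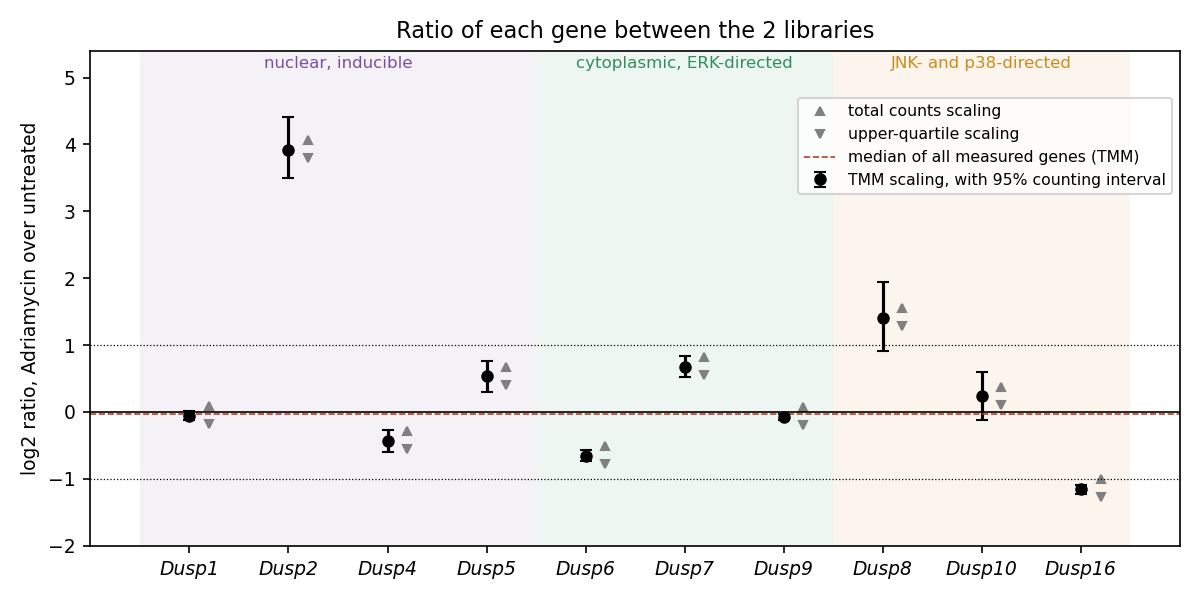
Log2 ratio of Adriamycin over untreated for each gene, with the 95% counting interval under TMM scaling in black and the values under total-count and upper-quartile scaling in grey. Dotted lines mark 2-fold, and Dusp2 at 3.92, Dusp8 at 1.40 and Dusp16 at -1.15 lie outside them.

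In the cytoplasmic class no member reached 2-fold, beside 17.0% higher and 6.95% lower among all measured genes. The 3 members spread to both sides. Dusp9, or MKP-4, is X-linked and has been described in mouse embryonic stem cells as a BMP-induced brake on ERK. It had 10660 reads in the Adriamycin and 11027 in the untreated library, a log2 ratio of -0.08 (-0.12 to -0.04). The libraries were nearly level for Dusp9, and with total counts the value was 0.07. Dusp6, or MKP-3, is the ERK-specific phosphatase whose transcript is widely used as a readout of FGF and ERK signalling. It had 2003 reads with Adriamycin and 3094 without, a log2 ratio of -0.66 (-0.74 to -0.57), and lay above 14.3% of genes of similar level (20 to 100 CPM). Dusp7, a close relative of Dusp6, had 908 reads with Adriamycin and 558 without, a log2 ratio of 0.67 (0.52 to 0.83). Dusp6 was thus lower and Dusp7 higher, short of 2-fold, and both kept their sign under each of the 4 scalings.

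Of the 3 JNK- and p38-directed genes, 1 was at least 2-fold higher and 1 lower, beside 17.0% and 6.95% of all measured genes. Dusp16, or MKP-7, acts mainly on JNK and lies on chromosome 6 from 134692431 to 134769588 (minus strand), with 7798 exonic bases. It had 2456 reads in the Adriamycin library (2360 to 2555) and 5364 in the untreated library (5221 to 5510). The Adriamycin count was the low one, with intervals far apart. Dusp16 had a log2 ratio of -1.15 (-1.22 to -1.09), 2.23-fold lower, and from -1.28 to -1.01 over the scalings. Only 2.97% of genes of similar level (20 to 100 CPM) had a lower ratio, and 4.94% of them were at least 2-fold lower.

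Dusp8, which acts on JNK and p38 and is best known from brain and heart, lies on chromosome 7 from 141633227 to 141649580 (minus strand). It had 125 reads in the Adriamycin library (104 to 149) and 46 in the untreated library (33.7 to 61.4). The Adriamycin count was high, on few reads in both. The log2 ratio of Dusp8 was 1.40 (0.92 to 1.93), a 2.65-fold higher level, and 0.70 to 2.17 with reads divided by 2. The lower ends of both intervals thus fall short of 2-fold. Genes of similar level (1 to 5 CPM) were at least 2-fold higher in 31.8% of cases, and 76.9% of them had a ratio below that of Dusp8. Dusp10, or MKP-5, had 145 reads with Adriamycin and 121 without, a log2 ratio of 0.23 (-0.12 to 0.59), a difference not detectable at this depth. Exons of Dusp8 share 66 bases with Gm32786, which had 0 reads in both libraries.

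**Figure D3:**
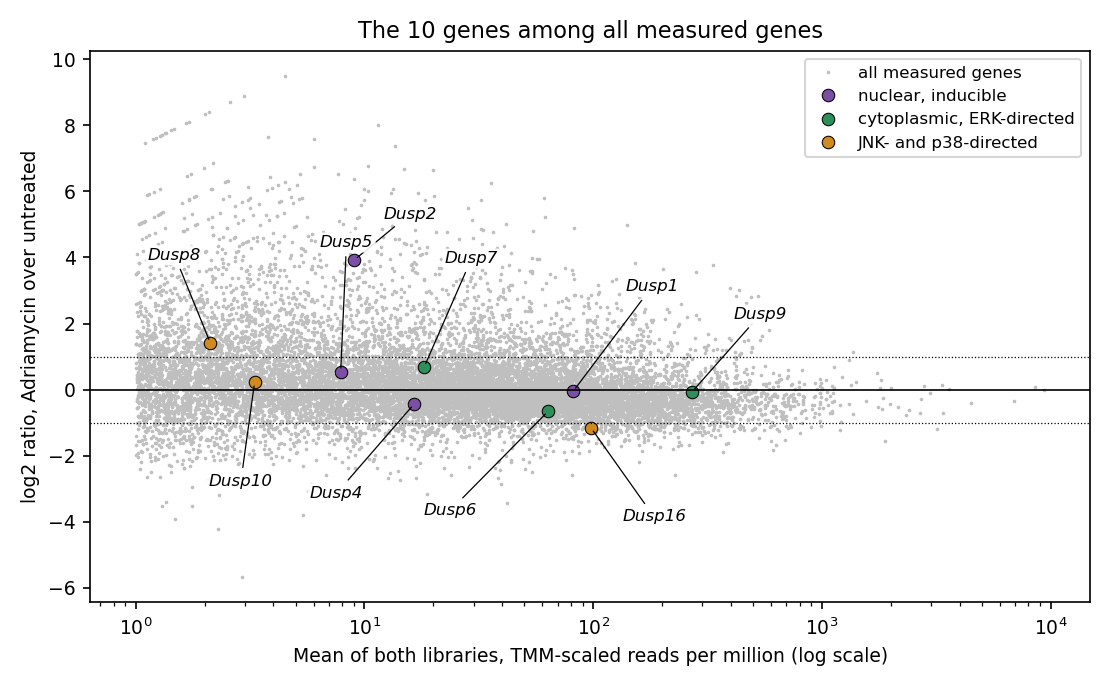
Log2 ratio of Adriamycin over untreated against the mean level of both libraries (log axis) for all 14871 measured genes in grey and the 10 phosphatase genes in colour by class, with dotted lines at 2-fold. Dusp2 lies in the upper part of the cloud at its level and Dusp16 near its lower edge, while Dusp8 lies where many genes are higher.

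Levels of different genes were compared per length, as TPM (reads per exonic base, scaled to the same total in each library). TPM carries no TMM scaling, so it was used for the order and the shares within a library. Dusp9 was the most abundant of the 10 in both libraries, at 371 TPM in the Adriamycin and 362 TPM in the untreated library, above 97.6% of measured genes with Adriamycin and 97.3% without. Dusp1 came next with 92.7 TPM in the Adriamycin and 89.5 TPM in the untreated library, followed by Dusp6 with 60.5 TPM with Adriamycin and 88.4 TPM without. In the untreated library the intervals of Dusp1 and Dusp6 overlapped, and in the Adriamycin library they did not.

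Dusp2 moved most in this order. In the Adriamycin library it was the 4th of the 10 at 32.4 TPM (30.0 to 34.9), and its interval overlapped that of Dusp16 at 29.8 TPM (28.6 to 31.0). In the untreated library it was the 9th at 1.96 TPM (1.43 to 2.64), below Dusp10 at 3.56 TPM (2.95 to 4.25). Dusp16 was the 5th with Adriamycin and the 4th without, where it had 61.5 TPM. Dusp7 at 25.6 TPM, Dusp4 at 19.7, Dusp5 at 14.4, Dusp10 at 4.51 and Dusp8 at 2.43 TPM closed the order in the Adriamycin library. In the untreated library Dusp4 at 24.6 TPM was above Dusp7 at 14.9 and Dusp5 at 9.26, and Dusp8 was last at 0.845 TPM. Other neighbours in either order had counting intervals that did not overlap.

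The summed level of the family had nearly the same ratio between the libraries as that of all measured genes, while its make-up differed. On the TMM scale (CPM per kilobase of exon) the 10 genes summed to 170 with Adriamycin and 185 without, a ratio of 0.921, beside 0.925 for all measured genes. Dusp9 alone made up 56.8% of the family TPM with Adriamycin and 55.2% without. The nuclear class took 24.4% in the Adriamycin and 19.1% in the untreated library, the cytoplasmic class 70.0% with Adriamycin and 70.9% without, and the JNK- and p38-directed class 5.63% with Adriamycin and 10.0% without. The difference in the nuclear class was mostly Dusp2, at 4.96% of the family with Adriamycin and 0.299% without. That in the last class was mostly Dusp16, at 4.57% with Adriamycin and 9.37% without. Dusp6 held 9.27% with Adriamycin and 13.5% without. As shares of the family's reads, with no account of length, Dusp16 held 11.6% (11.2 to 12.0, Clopper-Pearson) in the Adriamycin and 21.8% (21.3 to 22.3) in the untreated library, and Dusp2 3.24% with Adriamycin and 0.179% without.

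**Figure D4:**
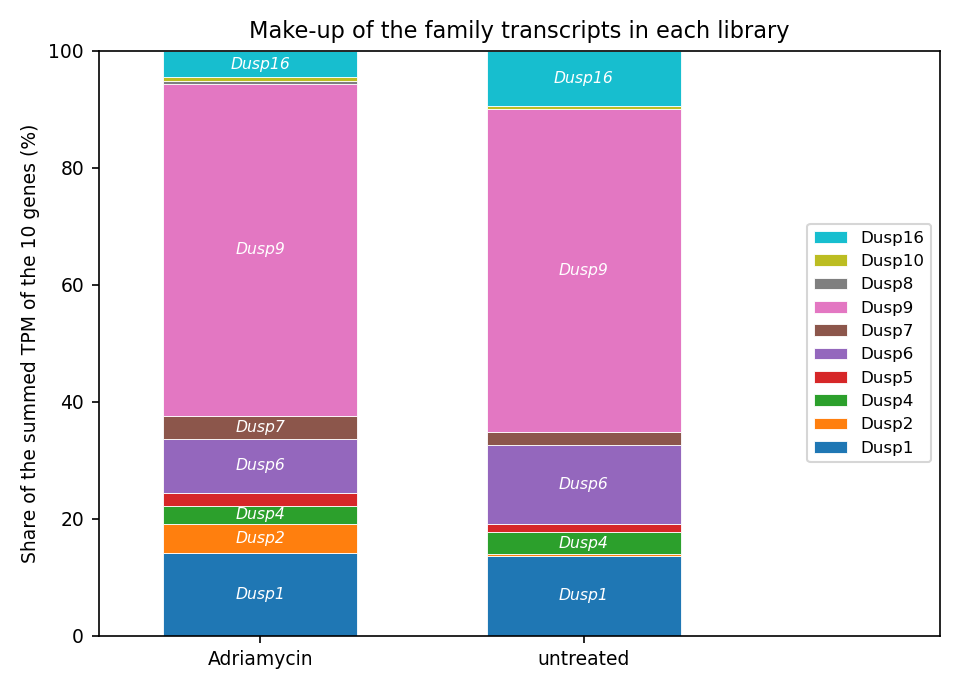
Share of each gene in the summed TPM of the 10 genes, with the Adriamycin library left and the untreated library right. Dusp9 fills over 55% of both bars, the Dusp2 band is 4.96% with Adriamycin and 0.299% without, and the Dusp16 band 4.57% with Adriamycin and 9.37% without.

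The surroundings of the called genes were described by measured genes within 100 kb, a window chosen after the values were seen. Around Dusp2, 4 of 8 such genes reached 2-fold on the higher side and 0 on the lower side, beside 17.0% higher and 6.95% lower among all measured genes. Astl, an oocyte protease gene that starts 263 bases beyond the end of Dusp2 on the same strand, had 259 reads in the Adriamycin and 6 in the untreated library, at a log2 ratio of 5.29 (4.26 to 6.86). Adra2b, an adrenergic receptor gene 24.8 kb from Dusp2 on the same strand, had 753 reads with Adriamycin and 52 without, at a log2 ratio of 3.82 (3.42 to 4.26). The nearest measured gene on the other side, Stard7, was near level at 3826 reads with Adriamycin and 4166 without (log2 ratio -0.15). Tmem127 and Gpat2, farther off, had log2 ratios of 1.99 and 1.05, the second 0.93 with upper-quartile scaling. Nothing is read from the count in so small a window, and whether reads ran on from one gene into the next was not tested. Around Dusp16, 0 of 4 measured genes within 100 kb reached 2-fold in either direction, and around Dusp8 0 of 2.

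Other phosphatases that act on MAP kinases or share the dual-specificity fold were described next. Their counts stand beside 17.0% higher and 6.95% lower among all measured genes. The atypical dual-specificity phosphatases, small enzymes that lack the MAP kinase docking domain, had 11 of 15 genes measured, with 3 higher, 0 lower and a median log2 ratio of 0.49. Dusp13, described in testis and muscle, had 413 reads in the Adriamycin and 7 in the untreated library (log2 ratio 5.76, 4.80 to 7.18), and Dusp15 had 421 reads with Adriamycin and 22 without (4.20, 3.61 to 4.92). Dusp28 had 808 reads with Adriamycin and 219 without (1.85, 1.64 to 2.08). These 3 genes lay at a mean of 5 to 20 CPM, where 19.9% of genes were at least 2-fold higher. Dusp13 (0.176 CPM) and Dusp15 (0.553 CPM) were under 1 CPM in the untreated library. They passed the filter only through the Adriamycin library, where they were high, and this leans the list to the higher side. Exons of Dusp13 share 280 bases with Gm15935 and those of Dusp28 share 58 bases with 5033417F24Rik, both on the opposite strand. Of 8 other phosphatases of MAP kinases 6 were measured, with 2 higher and 0 lower and a median of -0.08, which was 0.06 with total counts. These were Ptpn7, a tyrosine phosphatase of ERK and p38 known from blood cells, with 865 reads with Adriamycin and 121 without (2.80, 2.53 to 3.10), and Ppm1d, a p53-induced phosphatase of p38, with 4097 reads with Adriamycin and 1231 without (1.71, 1.61 to 1.80).

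The list of MAP kinase genes, which also holds atypical kinases such as Mapk6, had a median below that of all measured genes. Of 14 MAP kinase genes 13 were measured, with 0 higher and 2 lower, beside 17.0% and 6.95% of all measured genes. Their median log2 ratio of -0.66 stayed below 0 under all 4 scalings. The lower ones were the p38 gene Mapk11, with 204 reads in the Adriamycin and 618 in the untreated library (-1.62, -1.86 to -1.40), and Mapk6, the atypical kinase ERK3, with 5059 reads with Adriamycin and 10818 without (-1.12, -1.17 to -1.08). With total counts Mapk6 was at -0.98, which left 1 gene lower, and with upper-quartile factors 3 genes were lower. Mapk3, an ERK gene, had a log2 ratio of -0.81 (-0.88 to -0.74). The measured JNK genes differed in sign, Mapk9 with 0.68 (0.62 to 0.75) and Mapk8 with -0.49 (-0.59 to -0.40). Mapk10, the remaining JNK gene, had a mean under 1 CPM and was not measured, with 57 reads with Adriamycin and 0 without. The main p38 gene Mapk14 had -0.12. None of 7 MAP kinase kinase genes and none of 14 genes from FGF4 to the RAF kinases reached 2-fold in either direction, with medians of 0.09 for the first list (-0.04 with upper-quartile scaling) and -0.12 for the second (0.02 with total counts). In those lists Map2k4, a kinase of JNK, had a log2 ratio of 0.66 (0.60 to 0.72), Map2k1, a kinase of ERK, -0.51 (-0.55 to -0.46), and Fgf4 itself -0.33 (-0.37 to -0.29).

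**Figure D5:**
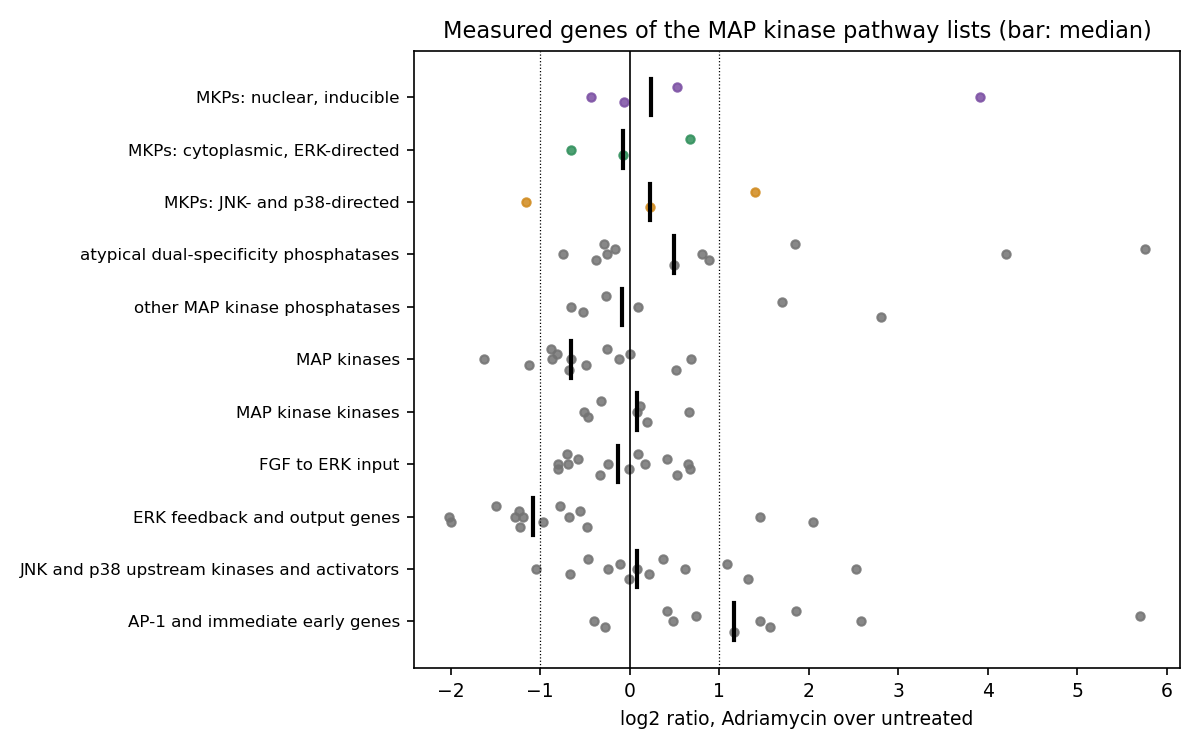
Log2 ratios of Adriamycin over untreated for the measured genes of 11 lists of the MAP kinase pathway, 1 point per gene, with a black bar at the median of each list and dotted lines at 2-fold. The median is -1.08 for ERK feedback and output genes and 1.17 for AP-1 and immediate early genes, and the 3 phosphatase classes lie between 0.24 and -0.08. In the classes of 3 genes the median is 1 gene, Dusp9 for the cytoplasmic class and Dusp10 (-0.12 to 0.59) for the JNK- and p38-directed class.

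The lists of genes downstream of the kinases had medians on opposite sides of 0. The shares over all measured genes, beside which their counts stand, were 17.0% higher and 6.95% lower. Of 14 ERK feedback and output genes, 7 were at least 2-fold lower and 2 higher, with a median log2 ratio of -1.08. Ier3 had 346 reads in the Adriamycin and 1374 in the untreated library (-2.02, -2.19 to -1.85), and Etv1, an ETS factor, 221 with Adriamycin and 865 without (-1.99, -2.22 to -1.78). Ccnd1, the cyclin D1 gene, had a log2 ratio of -1.50 (-1.58 to -1.41), and its exons share 1100 bases with LTO1 on the opposite strand. The FGF feedback inhibitors Spry4 and Spry2 were also lower, with log2 ratios of -1.28 and -1.19, and Dusp6 at -0.66 lay on the same side of 0. The 2 higher genes were Phlda1 (2.05, 1.81 to 2.30) and Egr1 (1.46, 1.36 to 1.56). Of 14 AP-1 and immediate early genes 11 were measured, with 6 higher, 0 lower and a median of 1.17. Fos had 1267 reads with Adriamycin and 206 without (2.59, 2.38 to 2.81) and Jun 995 reads with Adriamycin and 269 without (1.86, 1.66 to 2.06). Fosl1 had 343 reads with Adriamycin and 6 without (5.70, 4.67 to 7.27), with 1163 of its 2033 exonic bases shared with Ccdc85b on the opposite strand. At 0.151 CPM untreated, Fosl1 passed the filter of 1 CPM only through the Adriamycin library. Egr1 is on both lists. Dusp2 and Dusp1, immediate early genes themselves, stood at 3.92 and -0.06 beside them.

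Upstream of JNK and p38, 3 of 13 genes were at least 2-fold higher and 1 was lower, beside 17.0% and 6.95% of all measured genes. Nothing is read from counts so near those shares. The median log2 ratio of the list was 0.08, and -0.04 with upper-quartile factors. Map3k20, the stress kinase ZAK, had 6300 reads in the Adriamycin and 1073 in the untreated library (2.53, 2.43 to 2.62). Gadd45g, an activator of the kinase MEKK4, had 632 reads with Adriamycin and 248 without (1.32, 1.11 to 1.54), and Map3k5, the kinase ASK1, 982 with Adriamycin and 454 without (1.08, 0.92 to 1.25). Taok1, which activates the p38 branch, was the lower one with 3202 reads with Adriamycin and 6477 without (-1.04, -1.11 to -0.98). With total counts Taok1 was at -0.90, which left 0 lower, and with upper quartiles Map3k5 was at 0.96, which left 2 higher.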

How the data were processed

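The authors deposited 1 table of raw, unnormalized counts of reads for each library. The counter was featureCounts 2.0.3, per the file headers, run on paired-end alignments with both ends required and with exons of Ensembl release 105 on GRCm39. The headers show no option for strand, for reads that map to several places, or for counting pairs as 1 fragment. Counts of 2 were more frequent than counts of 1 (2266 against 1719 genes with Adriamycin, 2067 against 1629 untreated). The submitters' processing notes list HISAT2 2.0.4, Trim Galore 0.3.4 and FastQC. They also list DESeq2 1.16.1 and, unlike the headers, featureCounts 1.6.0 and the builds mm10 and mm9. The sources used here do not say how RNA was selected.

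Symbols came from GENCODE M21 by Ensembl identifier (52081 of 55414 matched). Library sizes were scaled by TMM (edgeR 4.0.16 in R 4.3.3, factors 1.05 for Adriamycin and 0.951 for untreated). CPM, TPM and log2 ratios (pseudocount 0.5 read, scaled to library size) were computed with scipy 1.17.1, pandas 2.3.3 and numpy 2.4.6 in Python 3.11.15. The ratio interval is conditional binomial (Clopper-Pearson), that of a count Poisson. Both cover counting error only and are too narrow where mates or PCR copies were counted apart. The arithmetic of the ratio and its interval was checked on simulated Poisson reads with total-count library sizes. That check held no differences between cultures and no mates, so it does not bear on how well the intervals hold here. Called means at least 2-fold, for genes whose mean reached 1 CPM. With 1 library per group no test was made. Alternatives were total counts, upper-quartile and median-of-ratios (DESeq2 1.42.0) scaling, a pseudocount of 2, other filters, folds of 1.5 and 4, reads divided by 2 and shares of reads. Genes named beside the family were up to 4 per list with the counting interval farthest from no difference, and the neighbours of the called members; 1 gene so chosen is not reported here. Others (Spry4, Spry2, Mapk8, Mapk9, Mapk10, Mapk14, Fgf4, the fibroblast and stem cell markers and genes within 100 kb or with shared exons) were chosen after their values were seen. Members and lists were chosen with earlier results of these data known. Protein sequences were not used here.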

Additional observations from a re-analysis of the deposited data

How the results depend on the processing

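No paired analysis was possible because each group has 1 library, and for the same reason no library could be left out. Total counts, upper-quartile and median-of-ratios scaling, a pseudocount of 2 reads and no filter on low counts all left 2 members higher and 1 lower. A mean of at least 5 CPM removed Dusp8 and Dusp10, which left 1 higher and 1 lower member and a median log2 ratio of -1.15 for the JNK- and p38-directed class, then Dusp16 alone (0.23 with all 3). A 1.5-fold rule gave 3 higher and 2 lower members, with 25.6% and 18.9% of all measured genes, and a 4-fold rule gave 1 and 0, with 7.17% and 0.706%. The median of all measured genes was -0.03 with TMM, 0.12 when scaled by total counts and -0.15 by upper quartiles, and the members shifted with it. The cytoplasmic class had a median of -0.08 with TMM, 0.068 when scaled by total counts and -0.20 by upper quartiles. Dusp1 and Dusp9 were the 2 members whose sign changed with scaling. With TMM, intervals of 8 of the 10 members excluded 0, also with reads divided by 2. The share of all measured genes with such intervals was not computed, so nothing is read from this count. The interval of Dusp9 lay below 0 with TMM (-0.12 to -0.04) and above 0 with total counts (0.03 to 0.11). With no filter, 29.2% of genes were higher and 14.7% lower. With total counts, the lists at 2-fold lower held 1 of 2 MAP kinases, 0 of 1 upstream kinases and 2 of 5 stem cell markers. At 2-fold higher, total counts gave 4 atypical phosphatases and 4 lineage markers, against 3 and 3 with TMM. With upper-quartile factors the lower side grew, to 3 MAP kinases, 6 stem cell markers and 8 ERK feedback and output genes. Counting intervals were widest for Dusp8, Dusp2 and Dusp10, and the absence of replicates limits every value.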
